A study of Mus musculus with 4 samples.

Results

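The neighbourhood of Ssbp4 on mouse chromosome 8 held 318 of the 72251 accessible regions found by ATAC-seq in B16-F10, a melanoma line from the mouse. ATAC-seq marks open chromatin, because the Tn5 transposase inserts sequencing adapters mainly into DNA that is not wrapped in nucleosomes. The calls of all libraries were merged where they overlapped by at least 1 bp, and the merged regions with a midpoint between 68 and 74 Mb of chromosome 8 (GRCm39) were taken. Those between 71.03 and 71.08 Mb, around Ssbp4 itself (near 71.05 Mb), were left out. The 3102 regions of chromosome 8 outside this stretch and outside 19 to 23 Mb were the reference, called the rest of chromosome 8 here. The first region taken, 68093889–68094344, and the last, 73960070–73960380, were both called in WT 2 alone, as was the next one beyond 74 Mb. The next one below 68 Mb was called in all 4 libraries.

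The knockout group (KO 1 and KO 2) has 2 libraries of cells electroporated with Cas9 and a mixture of guides against Ssbp4, and the wild-type group (WT 1 and WT 2) has 2 libraries. For controls, the protocol describes a guide that cuts between genes on chromosome 2. All cells were thawed from frozen stocks before tagmentation. The labels state neither whether the knockout is 1 clone or a pool of edited cells nor whether replicates are separate cultures, so the spread between replicates may be technical. The question here is whether open chromatin near the edited gene differs between the genotypes more than it does along the rest of its chromosome. With 2 libraries against 2, an exact two-sided permutation test cannot give a p below 0.33, so no test across libraries was made.

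SSBP4 belongs to a family of single-stranded DNA-binding proteins that bind the LIM-domain-binding cofactor LDB1 and stabilise the complexes through which it brings enhancers and promoters together. Cas9 cuts both DNA strands at the guide's site, and repair usually leaves short insertions or deletions, less often the loss of a longer stretch that carries neighbouring elements with it. In the RefSeq gene order of the GRCm38.p6 build, Ssbp4 lies between Isyna1, which encodes inositol-3-phosphate synthase, and Lrrc25, a leucine-rich repeat gene. Beyond Isyna1 come Ell (a transcription elongation factor), Fkbp8 and Kxd1. Beyond Lrrc25 come Gdf15 (a stress-induced cytokine), Pgpep1, Lsm4 and Jund (a subunit of the AP-1 transcription factor), and further along Ifi30, whose product reduces disulphide bonds during antigen processing. The peak positions refer to GRCm39, so no region is tied to a gene here, and marker genes of melanocytes and the Ssbp4 edit itself were not checked.

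The knockout libraries had 50068 and 57698 calls on chromosomes 1 to 19, X and Y, and the wild-type libraries 59215 and 63080. Each call carries the authors' fold enrichment and p-value, from which the summit pileup (reads stacked at the summit) and the local background were recovered. A recovered pileup within 0.05 of a whole read was obtained for 99.99% of the calls of WT 1, the lowest share of the 4 libraries. Over the whole genome the background was 17.2 and 17.4 reads in KO and 14.7 and 15.1 in WT. Total read numbers were not used here, so depth is known only through these values.

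The stretch around Ssbp4 was dense in open chromatin, and its regions called in all 4 libraries had high pileups. It held 53.4 regions per Mb, against 26.5 per Mb over the rest of chromosome 8. Of the 20 other 6-Mb stretches of the chromosome with at least 20 regions, 1 held more. The median length was similar, at 944.5 bp (range 308 to 3040) around Ssbp4 and 943 bp elsewhere on the chromosome. Among the regions called in all 4 libraries, the 187 around Ssbp4 had median summit pileups of 246 and 311 reads in KO and 380 and 454 in WT. The 1981 on the rest of the chromosome had 138 and 173 reads in KO and 203 and 242 in WT. Every library thus gave a higher median in the neighbourhood than elsewhere on the chromosome. The median local background was higher there too, at 39.0 and 43.0 reads in KO and 42.2 and 45.1 in WT. On the rest of chromosome 8 it was 25.9 and 27.9 (KO) and 26.9 and 28.4 (WT). The median folds of these shared regions were 5.72 and 6.39 (KO) and 7.69 and 8.80 (WT), against 5.04, 5.88, 7.23 and 8.12 elsewhere. Over all calls, shared or not, the median folds were 5.03 and 4.61 (KO) and 5.77 and 5.90 (WT) around Ssbp4. Elsewhere on the chromosome they were 4.63, 4.85, 5.81 and 6.07, so only KO 1 was higher around Ssbp4.

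In the neighbourhood 211 regions were called in KO 1 and 252 in KO 2, against 259 in WT 1 and 278 in WT 2. The order of the libraries is that of their whole lists. Calls in the neighbourhood made up 0.423% and 0.442% of all calls in KO and 0.446% and 0.450% in WT, with Wilson 95% intervals that overlapped between all libraries (lowest bound 0.370%, highest 0.506%). These intervals cover counting error only.

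**Figure D1:**
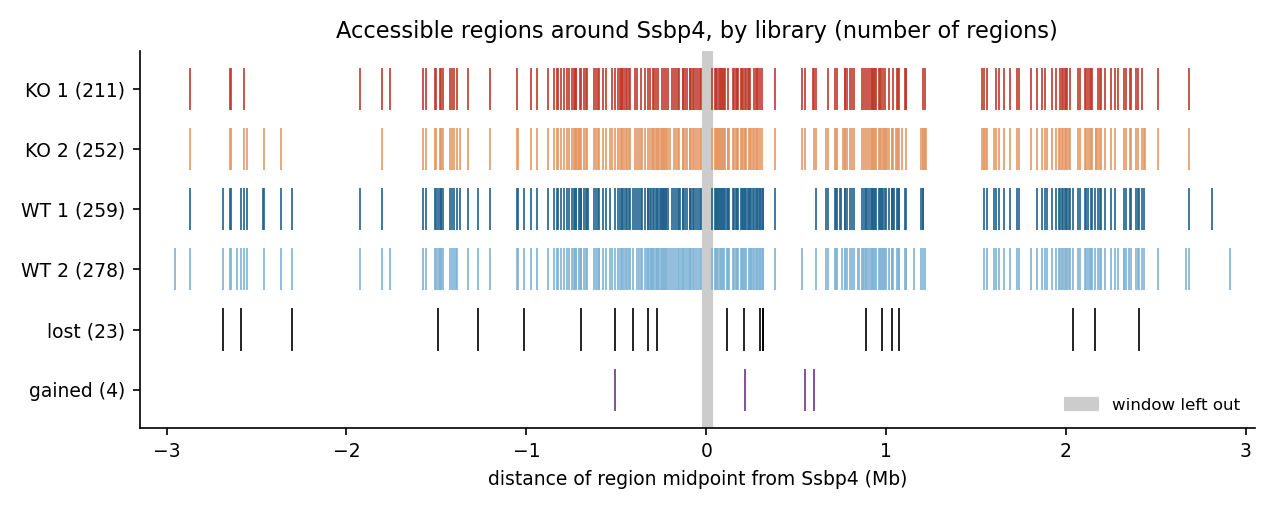
Positions of the 318 regions as distance from Ssbp4 in Mb (x axis), with a row of ticks for each library and for the lost and gained regions; the grey band is the window left out. The 23 lost regions lie on both sides of the window, the 4 gained regions all lie within 0.6 Mb of Ssbp4, and calls of all libraries continue up to both edges of the window.

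A region was counted as lost when both WT libraries and neither KO library had a call in it, and as gained when both KO libraries and neither WT library had one. Around Ssbp4, 23 regions were lost, or 7.23% (Wilson 95% interval 4.87 to 10.6). The share was 7.29% (6.42 to 8.25) on the rest of chromosome 8 and 7.09% over all union regions. Gained regions numbered 4, or 1.26% (0.490 to 3.19), against 0.870% (0.599 to 1.26) on the rest of chromosome 8 and 1.52% over all union regions. Calls in all 4 libraries covered 58.8% (53.3 to 64.1) of the regions around Ssbp4, 63.9% (62.2 to 65.5) on the rest of the chromosome and 60.9% of all union regions. The intervals of the neighbourhood and of the rest of the chromosome overlapped for each of these shares, and both shares of lost and gained regions lay near the level of the whole genome. Of the 20 other 6-Mb stretches, 17 had a higher share called in all 4 libraries than the neighbourhood. A higher share was lost in 14 of them and gained in 7.

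**Figure D2:**
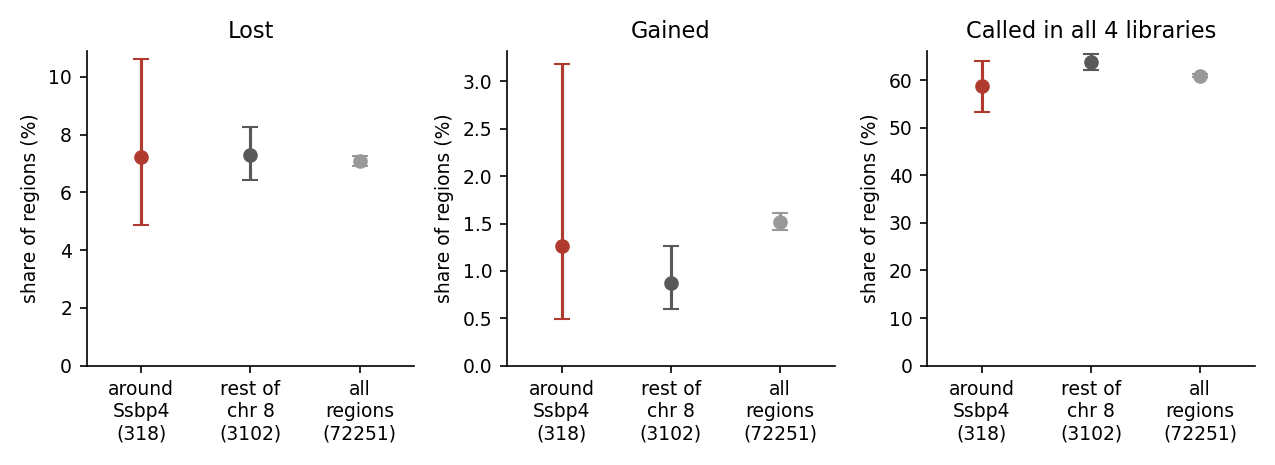
Share of regions (%, y axes starting at 0) that were lost, gained or called in all 4 libraries, for the neighbourhood of Ssbp4 (318 regions), the rest of chromosome 8 (3102) and all regions (72251); bars are Wilson 95% intervals. The intervals of the neighbourhood overlap those of the rest of the chromosome in every panel, with 7.23% and 7.29% lost.

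The count of lost regions was higher when a library was left out, since a region then needs fewer libraries to qualify. It was 51 without KO 2 (16.8%), 45 without WT 1 (14.7%), 35 without WT 2 (11.7%) and 26 without KO 1 (8.20%). The rest of the chromosome had 15.9%, 14.5%, 10.7% and 8.94% lost in these same settings. Gained regions numbered 19 without KO 1 (5.99%), 7 without KO 2 (2.31%), 8 without WT 1 (2.61%) and 10 without WT 2 (3.36%). On the rest of the chromosome the gained shares were 3.38%, 2.34%, 1.36% and 2.00%. With lists of equal length, 10 regions were lost and 9 gained around Ssbp4, or 3.85% and 3.46%, against 4.69% and 2.68% on the rest of the chromosome. Shares over all union regions were not computed in these settings. With all 4 full lists the gained share was lower on the rest of chromosome 8 (0.870%) than over all union regions (1.52%), so the rest of the chromosome is a low reference for gains.

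The regions that were neither lost, gained nor called throughout were mostly missing in the shortest list or present in a single one. KO 1 alone lacked 28 regions (8.81%, against 8.19% on the rest of the chromosome and 6.86% of all union regions). Calls in KO 2 alone made up 15 regions (4.72%, against 2.48% on the rest of the chromosome and 4.89% of all union regions) and in KO 1 alone 3 (0.943%, against 1.39% and 2.36%). Calls in WT 2 alone made up 22 (6.92%, against 6.80% and 6.65%) and in WT 1 alone 11 (3.46%, against 2.64% and 2.93%).

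The lost regions were short and mostly weak calls. The median length of lost regions was 479 bp (range 348 to 955, with 12 under 500 bp). Regions called in all 4 libraries had a median of 1244 bp. These 2 medians were 575 and 1171 bp on the rest of chromosome 8, and 543 and 1178 bp over all union regions. Lengths are those of merged calls, so calls in more libraries can only lengthen a region. The lost regions around Ssbp4 had median pileups of 53 reads in WT 1 (range 31 to 542) and 67 in WT 2 (36 to 661). In each WT list 21 of the 23 fell below the list's median p-value rank. KO 1 had no call shorter than 380 bp anywhere in the genome, and 2 of the lost regions were shorter than that. None was shorter than the shortest call of KO 2, 338 bp.

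Only 2 lost regions ranked above the median of both WT lists, or 0.629% (0.173 to 2.26), against 0.355% (0.198 to 0.634) on the rest of chromosome 8 and 0.304% over all union regions. Both lay above Ssbp4. The region 72025546–72025923, 378 bp long, had pileups of 542 and 661 reads and folds of 2.60 and 2.83 in WT 1 and WT 2. Its local background was 207 and 233 reads in WT, many times the genome level, and a region called in all 4 libraries lay 2.08 kb away. At 378 bp it was also shorter than any call of KO 1. The region 71259708–71260401, 180 kb above the left-out window, had pileups of 212 and 272 reads and folds of 4.43 and 5.41 in WT 1 and WT 2. A region called in all 4 libraries lay 1.70 kb from it.

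Among the other lost regions, the third by rank had the highest folds of all 23. This region, 70643846–70644592, lay 385 kb below the window and had 98 and 114 reads and folds of 5.62 and 6.13 in WT. At 71938309–71938724 the pileups were 206 and 226 reads, at folds of only 2.26 and 2.29. At 70723715–70724434 they were 96 and 125 reads, with folds of 3.37 and 3.95. The region 71346359–71346831 combined high pileups of 311 and 371 reads with folds of 1.85 and 2.08, over a local background of 167 and 178 reads. At 6 lost regions the background was over 2 times the genome level in both WT libraries. The remaining regions of the first 10 by rank were 68462995–68463399 (folds 3.76 and 5.39), 70355641–70356103 (2.19 and 2.75), 73213691–73214139 (3.30 and 3.65) and 69781269–69781733 (3.44 and 3.72).

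All 4 gained regions lay between 70 and 72 Mb, within 0.6 Mb of Ssbp4, where they made up 2.16% of 185 regions, against 0.835% on the chromosome outside that span and 1.52% of all union regions. They were weak, at pileups of 45 to 68 reads in KO 1 and 46 to 63 in KO 2 and below the median rank of both KO lists. The region 70540128–70540885 had 49 and 49 reads and folds of 2.75 and 2.68 in KO 1 and KO 2. The region 71263753–71264498 had 68 and 63 reads, at the lowest folds of the 4, 1.92 and 1.77. Both lay next to a lost region, 2.15 kb and 3.35 kb away. The region 71600051–71601464 had 49 and 55 reads with folds of 2.75 and 3.04, and 71647590–71648538 had 45 and 46 reads with folds of 2.53 and 2.55. On the rest of chromosome 8, 3 of 27 gained regions had a lost region as a direct neighbour.

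Most lost regions stood singly. The 23 lost regions fell into 22 runs, and the longest was the pair 71364043–71364997 and 71366472–71367148, which spanned 3.11 kb. With regions called in a single WT library counted too, the longest run without a call in either KO library was 3 regions over 3.18 kb, at 70743959–70747139. The longest run without a call in either WT library was 4 regions over 321 kb, at 72272364–72593149, and all 4 were called in a single KO library. Within 5 kb of a region called in all 4 libraries lay 10 of the 23 lost regions (43.5%), against 25.2% on the rest of the chromosome, where regions are less dense. The widest gap between calls was 648 kb in KO 1 and 560 kb in KO 2, against 378 kb in both WT 1 and WT 2, all near the sparse lower end of the stretch. The lost region 68747644–68748230, with 50 and 68 reads in WT, forms the lower border of the WT gap.

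Lost regions lay on both sides of Ssbp4. Below the window 11 of 138 regions were lost (7.97%) and 1 was gained, and above it 12 of 180 were lost (6.67%) and 3 were gained. In bins of 0.5 Mb, 7 bins held at least 20 regions. The 2 bins that border on Ssbp4 had 3 of 64 regions lost below it and 5 of 48 above it. The bin from 1 to 1.5 Mb above Ssbp4 had the fewest regions shared by all libraries, 7 of 23 (30.4%), against 60.0% to 72.2% in the other 6. There 10 regions were called in KO 1 and 17 in KO 2, against 15 in WT 1 and 16 in WT 2, so that the genotypes overlapped.

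The regions nearest to the window on either side kept their calls in all 4 libraries. Below it, the region 71023101–71024717 had 42 and 56 reads in KO and 53 and 72 in WT, 5.28 kb from the window. The region 71012544–71015044 had 203 and 235 reads in KO and 264 and 364 in WT. At 71005579–71007245 there were 140 and 157 reads in KO and 196 and 232 in WT. Above the window, the strong region 71082227–71083537, 2.23 kb away, had 894 and 1044 reads in KO and 1069 and 1286 in WT. The region 71098376–71099290 had 52 and 56 reads in KO and 67 and 72 in WT. At 71101576–71102587 there were 129 and 153 reads in KO and 212 and 242 in WT. Before scaling, KO 1 was the lowest library at each of these 6 regions and WT 2 the highest, as over the rest of the chromosome.

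Pileups were then scaled between libraries by the median ratio over the 1981 regions of the rest of chromosome 8, which gave factors of 0.780 and 0.963 for KO 1 and KO 2 and 1.06 and 1.25 for WT 1 and WT 2. After scaling, the 6 regions nearest to the window differed between KO and WT by log2 values from −0.28 to 0.13. The largest of these differences was at 71101576–71102587, with 165 and 159 scaled reads in KO and 199 and 193 in WT, and the groups did not overlap there. At 71082227–71083537 the scaled values were 1146 and 1084 in KO and 1005 and 1028 in WT, again without overlap but in the other direction. At 71005579–71007245 they were 179 and 163 in KO and 184 and 185 in WT. Of the 6 regions, 2 thus had both KO values below both WT values and 1 had both above. Among regions called in all 4 libraries these shares were 26.2% and 27.3% around Ssbp4, and 26.3% and 37.0% over all union regions.

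Over all 187 regions called in all 4 libraries, the median log2 pileup of KO over WT, before scaling, was −0.40 around Ssbp4 and −0.40 on the rest of chromosome 8. The difference of the medians was −0.0057. In the 4 pairs of a KO with a WT library the same difference ran from −0.012 to 0.012, and within a genotype it was −0.00071 (KO 2 over KO 1) and 0.00041 (WT 2 over WT 1). The sign of the difference varied between the pairs. Its size was below that of both differences within a genotype for KO 2 over WT 1 (0.00027), and above both for the other pairs. After scaling, the median was 0.0082 in the neighbourhood and 0.014 on the rest of chromosome 8. Among the 20 other 6-Mb stretches, scaled medians ran from −0.19 to 0.087, and 10 lay below and 10 above that of the neighbourhood. The median log2 local background of KO over WT was −0.068 around Ssbp4 and −0.028 on the rest of the chromosome. That difference, −0.040, had the same sign in all 4 library pairs (−0.073 to −0.029), which share libraries. The pairs within a genotype gave 0.013 and 0.030, and the second is larger in size than the −0.029 of KO 1 over WT 1. No background lies below the genome level, which was higher in KO (17.2 and 17.4 reads) than in WT (14.7 and 15.1). Median backgrounds were 2.27 to 2.98 times that level around Ssbp4 and 1.51 to 1.88 times on the rest of the chromosome. The part of this floor in the difference was not tested. In the other stretches the background ran from −0.10 to 0.24 relative to the rest of the chromosome, and 4 of 20 lay lower than the neighbourhood.

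**Figure D3:**
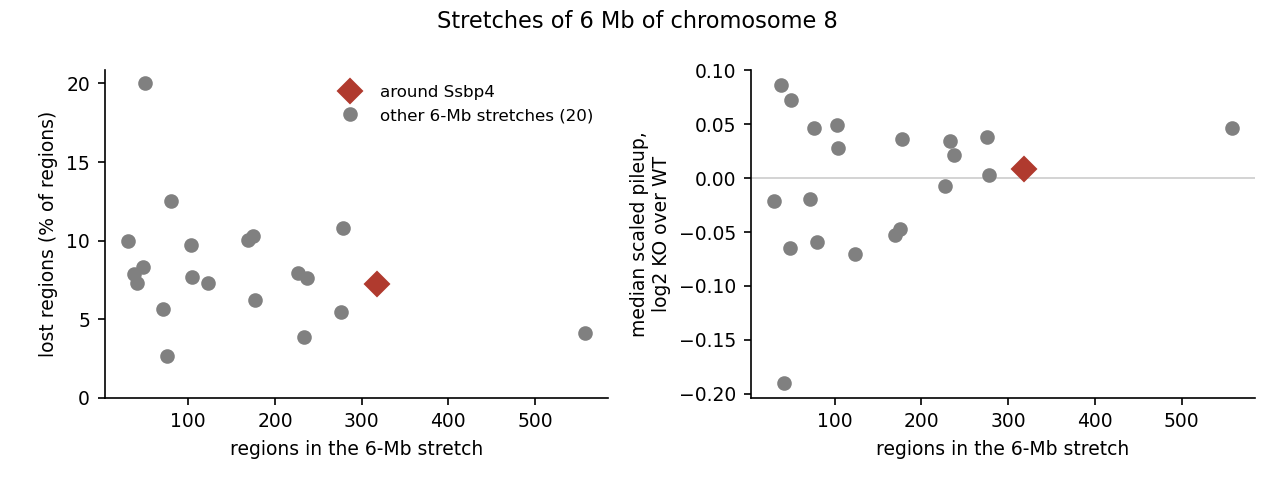
Each point is a 6-Mb stretch of chromosome 8 with at least 20 regions, plotted by its number of regions (x axis) against the share lost (left, %) or the median scaled log2 pileup of KO over WT (right). The stretch around Ssbp4, with 318 regions, 7.23% lost and a median of 0.0082, lies inside the range of the 20 others in both panels.

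In the 7 bins with at least 20 regions, of which 7 to 39 a bin were called in all 4 libraries, the median scaled log2 pileup of KO over WT ran from −0.014 to 0.071, and the ratios within a genotype over these bins ran from −0.10 to 0.035. On the same scale the median was 0.014 on the rest of chromosome 8 and 0.048 over all union regions. The highest of these bins, at 0.071, lay 1.5 to 2 Mb above Ssbp4. The bin from 0 to 0.5 Mb above Ssbp4 had the value 0.067, over 30 regions. Its 4 pairs of a KO with a WT library gave 0.085, 0.093, 0.040 and 0.053, all above the −0.00061 (KO 2 over KO 1) and −0.020 (WT 2 over WT 1) within a genotype. In the bin from 0.5 to 0 Mb below Ssbp4 the pairs ran from −0.0076 to 0.040, and the values within a genotype were −0.056 and 0.016. The medians were −0.018 over the regions below Ssbp4 and 0.033 over those above. Single regions varied more, with an SD of 0.28 over the 187 regions, against 0.32 on the rest of the chromosome. One of them changed by more than 2-fold after scaling (0.535%, against 1.06% on the rest of the chromosome). Both KO values lay below both WT values at 49 of the 187 regions, or 26.2%, against 26.3% over all union regions and 30.2% on the rest of the chromosome. Both KO values lay above both WT values at 51 regions (27.3%), against 37.0% and 30.7%. These counts depend on the scaling, and division by each library's median pileup gave 28 below (14.97%, against 19.4% on the rest of the chromosome and 17.1% of all union regions) and 97 above (51.9%, against 49.2% and 53.8%).

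**Figure D4:**
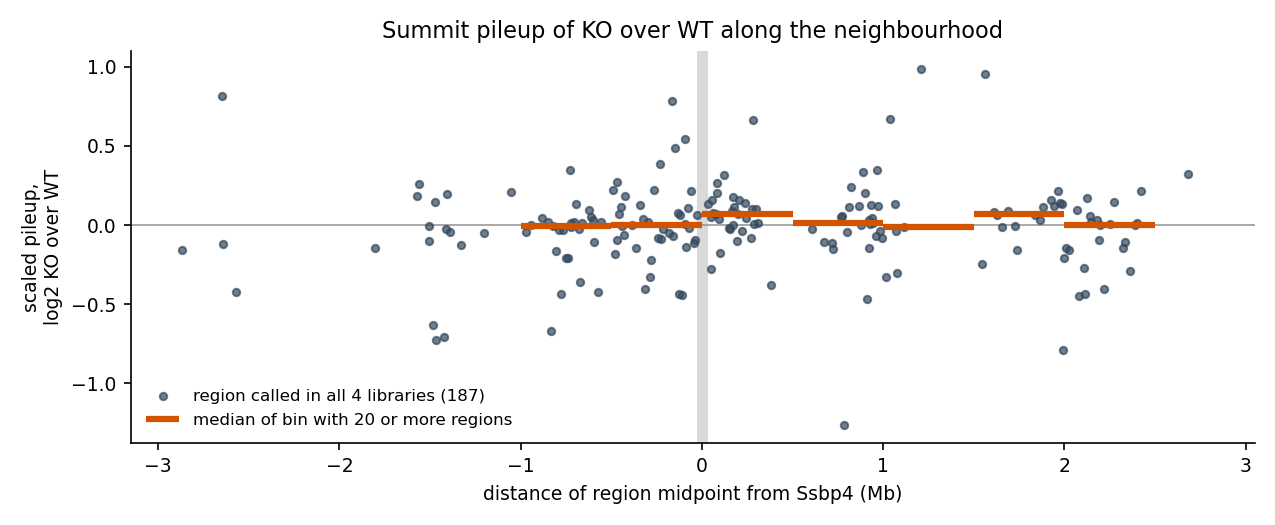
Scaled log2 summit pileup of KO over WT (y axis) for each of the 187 regions called in all 4 libraries, by distance from Ssbp4 in Mb (x axis); orange bars are medians of 0.5-Mb bins with at least 20 regions and the grey band is the window left out. The bin medians lie between −0.014 and 0.071, and single regions range from −1.26 to 0.99.

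The strongest regions of the neighbourhood differed by small scaled ratios between genotypes. At 70169056–70170100, the highest of all, there were 3225 and 3996 reads in KO and 4353 and 4942 in WT, which after scaling were 4135 and 4148 in KO and 4091 and 3949 in WT. The region 70664535–70665908 had 2556 and 3300 reads in KO and 3620 and 4130 in WT. At 70448539–70449872 there were 2566 and 3213 reads in KO and 3340 and 4187 in WT. The scaled log2 ratios of the 8 strongest regions ran from −0.10 to 0.21. The highest ratio among them was at 70990940–70992716, 37.3 kb below the window, with 3527 and 3041 scaled reads in KO and 2864 and 2785 in WT, which did not overlap. The lowest was at 71244239–71245759, with 2258 and 2270 scaled reads in KO and 2485 and 2376 in WT. The other 3, at 72914455–72915583, 73324316–73325862 and 71291706–71292941, had scaled ratios of 0.03, 0.14 and 0.04. Of the 8 strongest regions, 3 had both KO values above both WT values and 1 had both below. The shares above and below were 27.3% and 26.2% over all 187 regions, and 37.0% and 26.3% over all union regions.

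The regions with the most extreme ratios were chosen by the values given here, which are therefore a description. The 5 highest ratios of KO over WT were at weak regions. At 72257270–72258373 there were 71 and 66 reads in KO and 43 and 49 in WT, a scaled log2 ratio of 0.99. At 72610551–72613267 there were 60 and 58 reads in KO and 43 and 38 in WT, a ratio of 0.96. Both regions lie more than 1 Mb above Ssbp4. The local background was also higher in KO, at 22.3 and 22.1 reads in KO against 14.7 and 15.1 in WT at the first of them. The part of the background in these ratios was not tested. The next were 68402748–68403577 (0.81), 70882512–70883902 (0.78) and 72089952–72090665 (0.67), with pileups between 40 and 76 reads in all libraries.

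The 5 lowest ratios were at stronger regions on the whole. At 71833760–71835564 there were 115 and 136 reads in KO and 263 and 608 in WT, a scaled log2 ratio of −1.26. The WT libraries differed from each other there by more than WT 1 differed from KO 2, so the size of this ratio rests in part on WT 2. At 73042712–73043944 there were 166 and 202 reads in KO and 380 and 466 in WT, a ratio of −0.79, with replicates close to each other after scaling (213 and 210 in KO, 357 and 372 in WT). At 69583629–69584627 there were 58 and 57 reads in KO and 117 and 137 in WT, a ratio of −0.73. At 69627870–69628583, there were 69 and 93 reads in KO and 157 and 194 in WT, a ratio of −0.71. The fifth, at 70217580–70218809, had 93 and 138 reads in KO and 218 and 265 in WT, a ratio of −0.67. All 5 lowest and all 5 highest ratios kept both KO libraries on one side of both WT libraries, which the choice by ratio favours. Among all 187 regions both KO values lay below both WT values at 26.2% and above them at 27.3%. On the rest of chromosome 8 these shares were 30.2% and 30.7%, and over all union regions 26.3% and 37.0%.

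**Figure D5:**
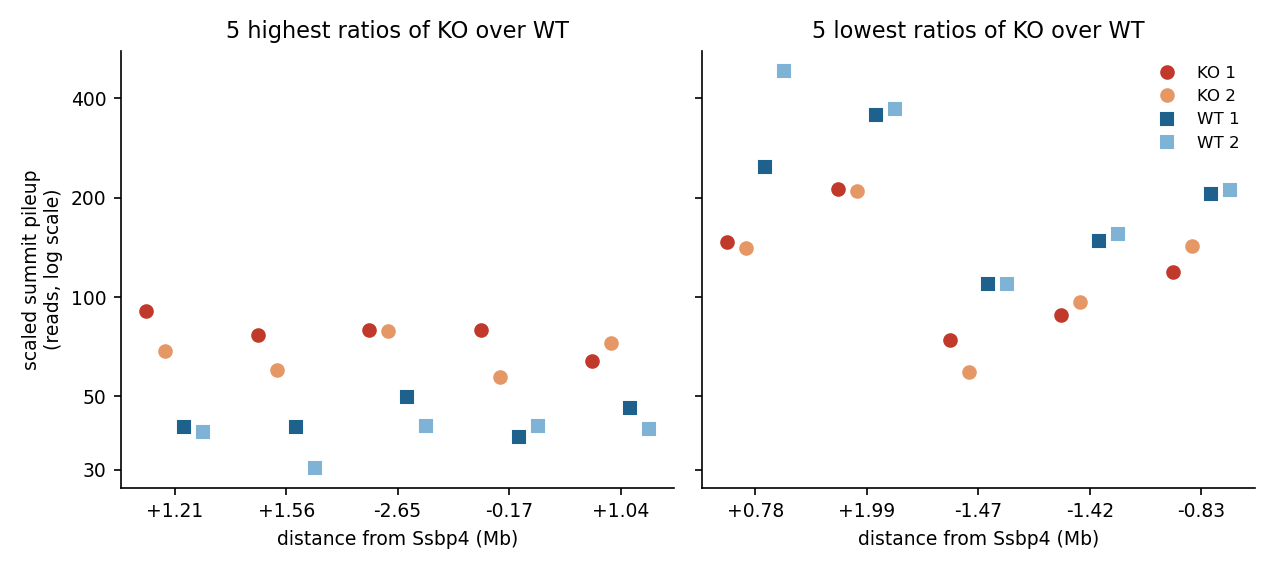
Scaled summit pileup (reads, log scale) in each library for the 5 regions with the highest (left) and the 5 with the lowest ratio (right) of KO over WT, labelled by distance from Ssbp4 in Mb; circles are KO and squares WT. The KO points lie on one side of the WT points at each region, which the choice by ratio favours, and WT 2 stands apart at the first of the lowest ratios.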

How the data were processed

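The 2 KO and 2 WT libraries each came with a narrowPeak list of their own. Calls were made with MACS2 on GRCm39, per the submitters' processing notes; for the aligner, versions, duplicate filter and Tn5 shift the entry is: not given in the sources used here. The authors deposited for each call a display score (not used), the fold enrichment ratio at the summit, and the −log10 p-value and −log10 q-value. The lists reach down to −log10 q of 1.30.

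Calls on the 21 standard chromosomes were merged at 1 bp of overlap. The pileup was solved from the fold, taken as (pileup + 1) over (background + 1), and the Poisson tail; where a region held several calls of a library, the one with the lowest p-value was used. Scripts (Python 3.11.15, pandas 2.3.3, scipy 1.17.1) were tested on simulated data. Named regions were every gained region, 10 lost regions by rank, 8 by pileup, the 5 highest and the 5 lowest ratios of KO over WT and 3 on each side of the window. The regions, lists and tests were chosen with earlier results of these data known. RefSeq genes at hand are of another build, so gene positions, gene lists and sequences were not used here.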

Additional observations from a re-analysis of the deposited data

How the results depend on the processing

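Of 71 comparisons with the values as reported, 46 stayed within counting error, the spread of library pairs or a factor of 1.5, and 25 moved. With lists of equal length, 10 regions (3.85%) were lost, 9 (3.46%) gained and 67.7% called in all 4 libraries, and the pileup difference from the rest of chromosome 8 was 0.0084 (log2). In the narrower span of 70 to 72 Mb, 12 regions were lost, as the span is shorter. With the fold in place of the pileup the difference was 0.025. Leaving out each library in turn gave 26 to 51 lost regions (8.20% to 16.8%), 7 to 19 gained (2.31% to 5.99%) and 62.7% to 68.1% called in all libraries kept. The pileup difference was then −0.0021 to 0.0097 and that of the local background −0.057 to −0.042. The pileup difference changed sign under 7 of its 14 alternatives, and was at most 0.025 from 0. The stricter q-value, the 50% cover, windows around summits and the wider span moved none of the neighbourhood's own values that were recomputed, by these measures. The local background difference was recomputed for the wider span, but not under the stricter q-value, the 50% cover or the windows around summits. Beside the rest of the chromosome, the gained share was 1.42% (4 regions) against 0.447% under the stricter q-value and 2.16% (4 regions) against 0.835% in the narrower span. Over all union regions the gained share was 1.52% at the reported q-value, and it was not computed under the stricter one. With the replicate number as a block (the mean of the 2 same-numbered pairs, added after seeing the data) the pileup difference was 0.0082 and that of the local background −0.043. The deviations of same-numbered libraries correlated at 0.167 over 44000 regions, but the labels do not say that a number marks a shared origin. Weak regions limit what can be called lost or gained, since the median lost region had 53 and 67 reads in WT.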

Other observations

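The left-out window between 71.03 and 71.08 Mb held 6 regions, of which 4 were called in all 4 libraries, 0 were lost and 0 gained. The widest, 71061270–71064524 (3255 bp), had summit pileups of 1396 and 1471 reads in KO and 1754 and 1927 in WT. At 71046347–71047736 there were 397 and 475 reads in KO and 524 and 677 in WT, and at 71037312–71038460 there were 139 and 177 in KO and 220 and 265 in WT. At 71072896–71074070 there were 61 and 53 reads in KO and 82 and 93 in WT. After scaling, the log2 ratios of KO over WT were 0.05, −0.04, −0.21 and −0.21 for these regions. The other 2 regions were called in WT 2 alone, with 44 and 43 reads. Calls over the gene do not show whether it was edited.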
